A study of Mus musculus with 6 samples.

Results

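The ErbB receptors and their ligands were followed through mouse mammary glands and mammary tumours as 10 genes, chosen by symbol from the deposited expression table: the receptors Egfr, Erbb2, Erbb3 and Erbb4 and the ligands Areg, Ereg, Hbegf, Btc, Tgfa and Nrg1. All 10 had a row among the 24421 symbols of the table. The 3 gland libraries came from female FVB/NJ mice whose strain label reads Tg(LINK-A), and the 3 tumour libraries from female FVB/NJ mice labelled MMTV-Tg(LINK-A), all aged 5 months. LINK-A is a long non-coding RNA known from human breast cancer, and MMTV is the mouse mammary tumour virus promoter, which drives a transgene in mammary epithelium. Both groups thus carry a LINK-A transgene by label, the gland label names no promoter, and genotype and tissue cannot be told apart. The labels do not say that the samples of a group came from separate animals, so p-values reflect the spread among libraries, which may be technical.

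The ErbB family are receptor tyrosine kinases that pair up when a ligand binds. Egfr and Erbb4 bind ligand and carry an active kinase, Erbb2 has no known ligand of its own and is the favoured partner of the others, and Erbb3 binds neuregulins but has a weak kinase and signals through its partner. The ligands are made as membrane precursors and released by ADAM proteases. In the mammary gland, amphiregulin (Areg) is the oestrogen-induced ligand through which hormone-sensing cells drive duct growth in puberty, and Erbb2 is the receptor amplified in a class of human breast cancers.

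Values were taken as FPKM, which scale fragments to transcript length and to the library, so that levels of different genes can be set side by side. They summed to between 486080 and 582996 per library. Steps between low values of genes with 1 annotated transcript put 1 fragment on a transcript of 1 kilobase at 0.126 to 0.236 FPKM. Tumour 1 was the shallowest library by this estimate and gland 3 the deepest. Libraries correlated at r = 0.921 to 0.977 among glands and 0.944 to 0.982 among tumours, across genes, which are not independent replicates. All 8 listed luminal epithelial markers rose in the tumours, with sums of 1086 to 1155 FPKM among glands and 2945 to 3322 FPKM among tumours. All 6 adipocyte markers fell (sums of 6259 to 7587 and 33.3 to 226 FPKM), as did all 6 fibroblast markers (1802 to 1939 and 120 to 417 FPKM) and 4 of 5 macrophage markers. Glands 1 and 3 were high in B cell and lymph node genes (123 and 128 FPKM against 19.8 in gland 2), and gland 2 in skeletal muscle genes (11150 FPKM against 13.1 and 996). In such bulk tissue, fewer cells of a type and less RNA per cell cannot be told apart.

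Promoter sequences were matched for 6 of the 10 members in a RefSeq table (build GRCm38.p6, the patched form of mm10). Those of Areg, Tgfa and Erbb2 are shown, since these genes passed the test in opposite directions. Each runs from 250 bases before to 50 bases after the annotated start, 5′ to 3′ on the gene's strand. Areg lies at chr5:91139349-91139648 on the plus strand, Tgfa at chr6:86194972-86195271 on the plus strand and Erbb2 at chr11:98412234-98412533 on the plus strand. Capitals mark matches on either strand to any of 10 motifs.
Areg: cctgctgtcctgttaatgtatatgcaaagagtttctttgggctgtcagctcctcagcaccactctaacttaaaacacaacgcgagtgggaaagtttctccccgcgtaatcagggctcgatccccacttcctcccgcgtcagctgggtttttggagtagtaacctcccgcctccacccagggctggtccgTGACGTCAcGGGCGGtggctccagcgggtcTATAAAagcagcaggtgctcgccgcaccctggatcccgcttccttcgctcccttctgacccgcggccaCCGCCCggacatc
Tgfa: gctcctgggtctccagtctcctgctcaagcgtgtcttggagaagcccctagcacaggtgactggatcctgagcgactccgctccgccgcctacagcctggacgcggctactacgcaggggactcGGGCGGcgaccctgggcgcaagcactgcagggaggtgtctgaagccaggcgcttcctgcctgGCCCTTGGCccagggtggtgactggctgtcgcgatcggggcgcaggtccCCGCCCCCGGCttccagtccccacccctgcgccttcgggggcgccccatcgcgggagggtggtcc
Erbb2: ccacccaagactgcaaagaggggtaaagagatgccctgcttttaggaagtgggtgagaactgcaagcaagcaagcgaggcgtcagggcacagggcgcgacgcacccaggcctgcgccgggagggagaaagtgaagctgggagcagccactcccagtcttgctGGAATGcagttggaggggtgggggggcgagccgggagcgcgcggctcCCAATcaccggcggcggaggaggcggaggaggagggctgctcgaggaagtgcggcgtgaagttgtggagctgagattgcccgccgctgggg
The Areg window held the cyclic AMP response element TGACGTCA 61 bases before the start, a motif present in 1.79% of 32851 promoters of this length. It also held a TATA box (TATAAA, 31 bases before the start, 13.6% of promoters) and 2 GC boxes (GGGCGG, 35.7% of promoters). The Tgfa window held 2 GC boxes and 2 AP-2 motifs (GCCNNNGGC, 16.6%). A GC box beginning 15 bases before the start overlaps an AP-2 motif beginning 13 bases before it. The Erbb2 window held a TEAD motif (GGAATG, 88 bases before the start, 14.7%) and a CCAAT box (CCAAT, 37.4%). The other motifs searched were AP-1 (TGANTCA, 7.81%), ETS (CCGGAAG, 8.86%), forkhead (TGTTTAC, 3.65%) and the palindromic oestrogen response element (0.07%), whose letters are not in these 3 windows. A match describes the letters of the window and not a bound site.

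Of the 10 members, 7 averaged 1 FPKM or more across libraries and entered the test, limma's moderated test on log2(FPKM + 1) with Benjamini-Hochberg adjustment over all 13364 genes tested at a threshold of 0.05. In the tumours, 3 of the 7 rose (Tgfa, Hbegf and Erbb2), 1 fell (Areg) and 3 did not pass (Egfr, Erbb3 and Btc). The same test called 21.9% of all tested genes higher and 23.1% lower, and the median log2 fold change was 0.46 over the 7 members and 0.01 over all tested genes. The groups did not overlap for 4 members that were higher and 1 that was lower, against 29.3% and 29% of the tested genes. Without glands 1 and 3, the libraries high in lymph node genes, which leaves 1 gland, 1 member passed as higher (Tgfa) and none as lower by limma (1 at an unadjusted p under 0.05, Areg), against 5.91% and 9.44% of tested genes. Erbb4, Ereg and Nrg1 were under the level required and are described by their values.

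**Figure D1:**
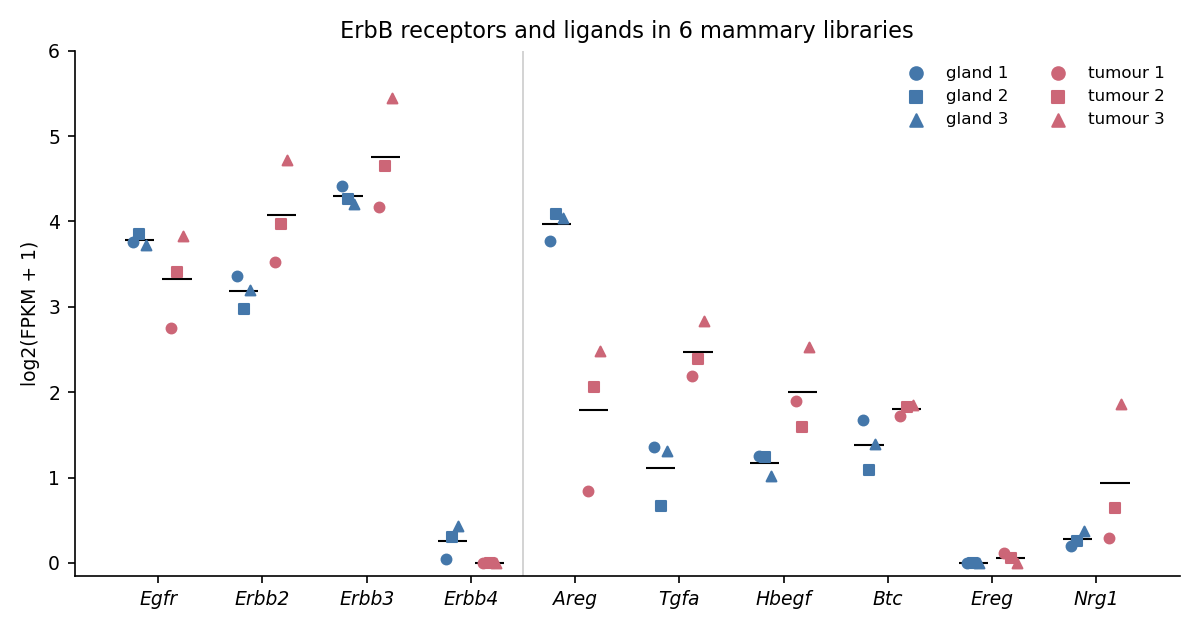
Levels of the 10 members in each library, as log2(FPKM + 1), with receptors left of the grey line and ligands right of it. Points are libraries (shape gives the number), black bars are group means. Areg lies far lower in the tumours, Tgfa and Hbegf lie higher, and tumour 3 is the highest tumour for all 7 tested members.

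Among the receptors, Erbb2 had levels of 9.29, 6.88 and 8.19 FPKM in glands 1, 2 and 3, against 10.5, 14.7 and 25.3 FPKM in tumours 1, 2 and 3. All tumours lay above all glands, tumour 1 only just so and tumour 3 far above. Its mean level was 8.12 ± 1.21 FPKM among glands and 16.8 ± 7.61 FPKM among tumours (mean ± SD, n = 3 each), a log2 fold change of 0.89 (SE 0.29, limma adjusted p = 0.0445), on the log2(FPKM + 1) scale, as are all log2 fold changes given, so that those of low genes are understated. This call lay close to the threshold: it was lost without gland 1 (limma adjusted p = 0.0718), gland 2 (0.126), gland 3 (0.106) or tumour 2 (0.0917), with adjusted p from 0.00461 to 0.24 among its alternatives. Without tumour 3 the log2 fold change of Erbb2 was 0.57 (adjusted p = 0.044).

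Erbb3, the neuregulin receptor that signals through Erbb2, had the highest level of the family in every library. The glands had 20.3, 18.2 and 17.4 FPKM, and the tumours 17.0, 24.2 and 42.6 FPKM. Tumour 1 lay below all glands and tumours 2 and 3 above them, so the groups overlapped. The log2 fold change of 0.46 (SE 0.30, limma adjusted p = 0.247) did not pass. It was 0.12 without tumour 3, and 0.76 without tumour 1, which passed (limma adjusted p = 0.0491, range 0.00571 to 0.581 among alternatives). The low end of that range came from the fit relative to the luminal markers, where the log2 fold change was negative (-1.05). Erbb3 is also a receptor of Schwann cells: of 6 listed Schwann cell markers 4 fell and 2 rose, among them Sox10, a transcription factor of that lineage. The summed level of these markers was 101 to 128 FPKM among glands and 136 to 245 FPKM among tumours, and their part in the Erbb3 level was not tested.

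Egfr, the receptor for amphiregulin and transforming growth factor alpha, had gland levels of 12.5, 13.5 and 12.2 FPKM and tumour levels of 5.74, 9.61 and 13.3 FPKM. Tumours 1 and 2 lay below all glands and tumour 3 among them. The log2 fold change of -0.45 (SE 0.26, limma adjusted p = 0.201) did not pass. Without tumour 3 it was -0.70 and passed (limma adjusted p = 0.0302, range 1.35e-04 to 0.504 among alternatives), and without tumour 1 it was -0.16. Egfr is expressed in mammary stroma as well as in epithelium, and the fibroblast and adipocyte markers fell in the same libraries, furthest in tumour 3, where Egfr was highest among the tumours. Their part in the Egfr level was not tested.

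Erbb4, the neuregulin receptor of the lactating gland, was low throughout: the glands had 0.0357, 0.232 and 0.349 FPKM, and each of the 3 tumours was listed at 0. These gland values correspond to about 3, 17 and 33 fragments if the longest coding transcript was used. With no filter on low values its difference did not pass (limma adjusted p = 0.0956, where 20.9% of 18174 genes passed as lower).

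The ratios between the receptors within a library did not overlap between the groups. Erbb2 over Egfr, a ratio within each library that no scaling between libraries can change, was 0.742, 0.51 and 0.67 in the glands and 1.84, 1.53 and 1.91 in the tumours. Thus the FPKM of Egfr exceeded that of Erbb2 in every gland and the reverse held in every tumour. Erbb3 over Egfr was 1.46 ± 0.142 in the glands and 2.90 ± 0.353 in the tumours, again without overlap. Erbb3 over Erbb2 was 2.32 ± 0.281 in the glands and 1.65 ± 0.0357 in the tumours, where the values of 1.61, 1.65 and 1.68 were close together although Erbb2 and Erbb3 each varied widely among the tumours. Egfr made up 29.7% to 34.8% of the summed receptor FPKM of the glands and 16.3% to 19.8% of that of the tumours, and Erbb2 17.7% to 22% and 30.3% to 31.7%. These ratios were chosen after the levels were seen and are given without a test. How often ratios of other gene pairs separate the groups was not computed. Single genes did so for 29.3% (higher) and 29% (lower) of those tested.

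**Figure D2:**
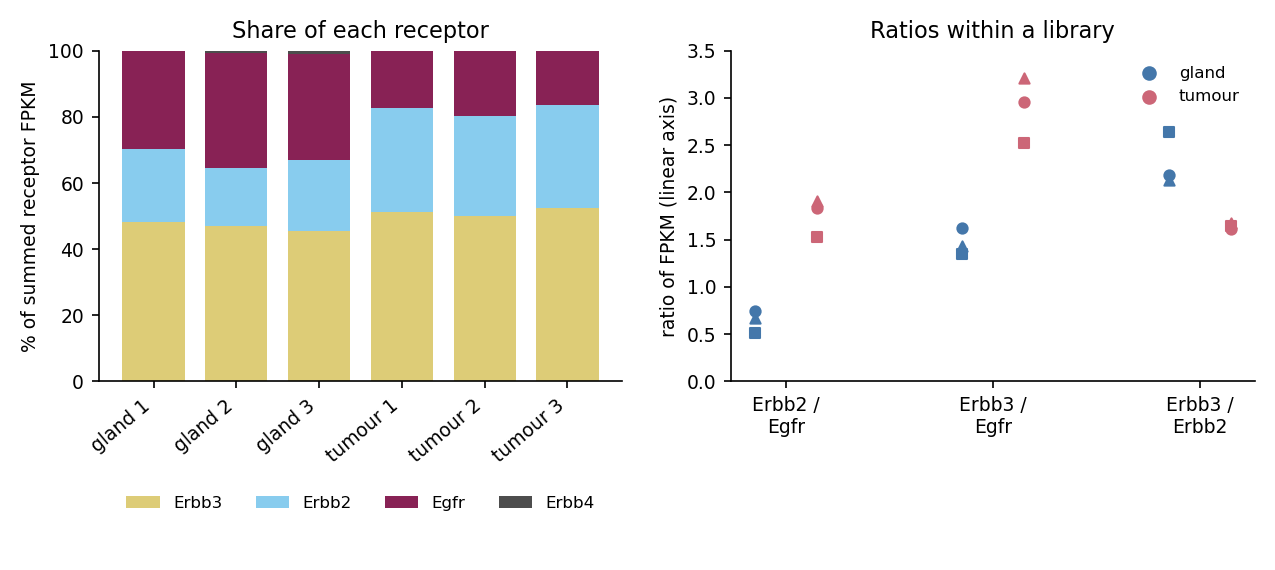
Left, share of each receptor in the summed FPKM of the 4 receptors, per library. Right, ratios of receptor FPKM within a library (linear axis; circle, square and triangle for libraries 1 to 3). Egfr takes 16.3% to 19.8% in the tumours against 29.7% to 34.8% in the glands, and no ratio overlaps between the groups. How often ratios of other gene pairs do the same was not computed.

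Among the 6 ligands of the 10 genes, Areg was the one that fell. Glands 1, 2 and 3 had 12.7, 15.96 and 15.4 FPKM, and tumours 1, 2 and 3 had 0.787, 3.19 and 4.58 FPKM. The highest tumour was far under the lowest gland. Its mean fell from 14.7 ± 1.77 to 2.85 ± 1.92 FPKM (n = 3 each), a log2 fold change of -2.17 (SE 0.40, limma adjusted p = 0.00467). The tumour values correspond to about 4, 26 and 35 fragments, so that the value in tumour 1 is imprecise. The call was lost only without glands 1 and 3 together, when a single gland remained and the log2 fold change was -2.29 (limma adjusted p = 0.124, range 6.86e-05 to 0.124 among alternatives).

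The list of genes upstream of Areg had 11 members, of which 10 were tested: 2 fell, 1 rose and 7 did not pass (median log2 fold change -0.12). The shares over all tested genes were 23.1% lower and 21.9% higher. Without tumour 3, 2 rose. The oestrogen receptor gene Esr1 fell from 7.88, 9.49 and 8.72 FPKM to 1.196, 2.12 and 1.205 FPKM, and its pioneer factor Foxa1 by 2.20 on the log2 scale. The progesterone receptor gene Pgr was under the level required, with 1.17 to 1.43 FPKM among glands and 0.0432 to 0.498 FPKM among tumours. Cyr61, a target of the Yap coactivator, rose by 0.86. Gata3, a luminal transcription factor, stood at 36.4 ± 3.57 and 33.4 FPKM and did not pass (limma adjusted p = 0.553). Ctgf, another Yap target, had a log2 fold change of 0.06 that did not pass and had no stable sign, at -0.08 without tumour 2 and 0.33 without tumour 3, which passed (limma adjusted p = 0.0254, range 0.00162 to 0.992 among alternatives). The low end of its range came from the fit relative to the luminal markers, where Ctgf stood at -1.45.

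Tgfa, an Egfr ligand made by many epithelial tumours, rose. Its gland levels were 1.57, 0.591 and 1.47 FPKM, and its tumour levels 3.56, 4.24 and 6.12 FPKM. Every tumour exceeded the highest gland by more than the spread among glands. The log2 fold change was 1.36 (SE 0.26, limma adjusted p = 0.00561), and it passed with each library left out in turn. Without glands 1 and 3 it was 1.80 (limma adjusted p = 0.0438, range 8.84e-04 to 0.511 among alternatives), where 1 gland was left and its spread was assumed to be that of the tumours. About 17 to 53 fragments lay behind the gland values and 68 to 177 behind those of the tumours.

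Hbegf, the heparin-binding ligand of Egfr and Erbb4, also rose, from 1.38, 1.36 and 1.02 FPKM in the glands to 2.71, 2.01 and 4.76 FPKM in the tumours. The groups did not overlap, and tumour 3 was again the highest. The log2 fold change was 0.83 (SE 0.26, limma adjusted p = 0.0366). The call was lost without gland 1 (limma adjusted p = 0.0755), gland 2 (0.0713), gland 3 (0.115) or tumour 1 (0.0643), with a range of 0.00656 to 0.3 among alternatives. About 19 to 20 fragments lay behind each gland value. Hbegf is also made by macrophages, whose summed markers were 899 to 1018 FPKM among glands and 207 to 479 FPKM among tumours. Their part in the Hbegf level was not tested.

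Btc, or betacellulin, another shared ligand of Egfr and Erbb4, had gland levels of 2.19, 1.13 and 1.63 FPKM and tumour levels of 2.30, 2.56 and 2.61 FPKM. The groups did not overlap, but gland 1 lay just under tumour 1, and the log2 fold change of 0.42 (SE 0.19, limma adjusted p = 0.121) did not pass. It was 0.27 without gland 2 (limma adjusted p = 0.272), and passed under quantile normalization at 0.96 (limma adjusted p = 0.00882, range 9.07e-04 to 0.272 among alternatives). Here too the low end came from the fit relative to the luminal markers, where the log2 fold change was -1.10. Ereg, or epiregulin, was listed at 0 in all glands and in tumour 3 and at 0.0857 and 0.0364 FPKM in tumours 1 and 2, about 1 to 2 fragments. The genes of Areg, Ereg, Btc and the further ligand epigen (Epgn) lie together on chromosome 5, from 91027464 to 91402994 of mm10, a span of 376 kb. Within this cluster Areg fell, Btc did not pass, and Ereg and Epgn were under the level required. Epgn had 0, 0.379 and 0 FPKM in glands, against 1.17, 1.37 and 0.689 FPKM in tumours, and passed with no filter (log2 fold change 0.89, limma adjusted p = 0.0117, where 16.3% of genes passed as higher).

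**Figure D3:**
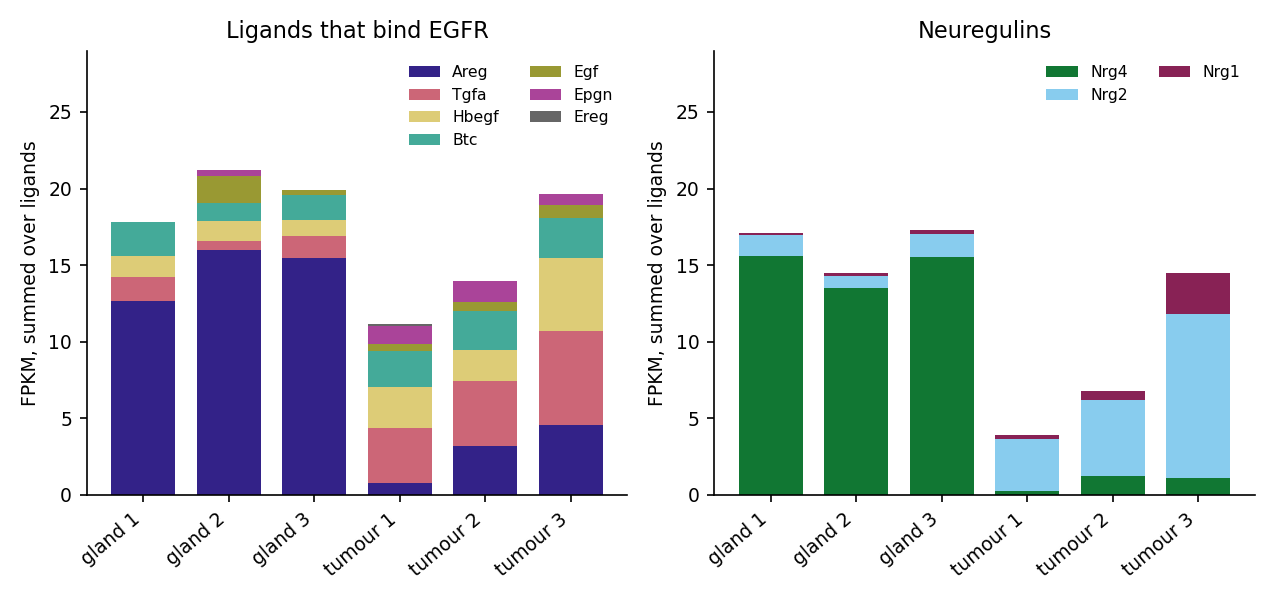
FPKM of ErbB ligands stacked per library, for the ligands that bind Egfr (left) and the neuregulins (right). Areg is the main part of the left bars and Nrg4 of the right bars in the glands, while in the tumours Areg is 7.07% to 23.3% of the left bars and Nrg2 is the main part of the right bars.

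In sum over the 7 ligands that bind Egfr, the glands had 17.8, 21.2 and 19.9 FPKM and the tumours 11.1, 13.97 and 19.6 FPKM. Tumour 3 thus lay within the range of the glands and tumours 1 and 2 below it. Areg made up 71.1% to 77.5% of this sum in the glands and 7.07% to 23.3% in the tumours. Tgfa made up 2.79% to 8.8% and 30.4% to 32%. No single ligand held more than 32% of the sum in a tumour.

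Of the neuregulins, Nrg1 and Nrg2 bind Erbb3 and Erbb4, while Nrg3 and Nrg4 bind Erbb4. Nrg4 is secreted by fat cells. Nrg1 was low, with gland levels of 0.151, 0.192 and 0.297 FPKM and tumour levels of 0.224, 0.566 and 2.65 FPKM. Only tumour 3 held more than 1 FPKM, or about 91 fragments, and tumour 1 lay among the glands. With no filter the log2 fold change of 0.66 did not pass (limma adjusted p = 0.235). Of the ligands outside the 10 members, Nrg2 rose from 1.38, 0.801 and 1.44 FPKM to 3.41, 4.97 and 10.7 FPKM (log2 fold change 1.63, SE 0.36, limma adjusted p = 0.0102), a call lost without glands 1 and 3 (0.13, range 6.49e-04 to 0.741 among alternatives). Nrg4 fell from 15.6, 13.5 and 15.6 FPKM to 0.245, 1.21 and 1.08 FPKM (-3.15, SE 0.24, limma adjusted p = 1.27e-04). The adipocyte markers fell in the same libraries, Adipoq from 661 to 674 FPKM down to between 1.72 and 15.4, and their part in the Nrg4 level was not tested. Nrg4 was 89.9% to 93.1% of the summed neuregulin FPKM in the glands, and Nrg2 73.7% to 87.9% in the tumours. Nrg3 was listed at 0 in every library and Egf, at 0 to 1.77 FPKM, was under the level required.

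Tumour 3 held the highest tumour value of all 7 tested members, the one fallen member included, where it was the highest tumour for 40.7% of all tested genes. Tumour 1 held the lowest value of 6 of the 7, all but Hbegf, against 42.7% of tested genes. The SD of log2(FPKM + 1) among tumours was 0.854 for Areg, 0.644 for Erbb3, 0.60 for Erbb2, 0.545 for Egfr and 0.478 for Hbegf, where the median tested gene had 0.218. Among the glands it was 0.069 to 0.193 for the same 5 genes, with a median of 0.133 over all tested genes. Btc and Tgfa varied less among the tumours (0.0705 and 0.328) than among the glands (0.291 and 0.384). Of all tested genes 7.41% had at least the SD of Erbb2 among the tumours. Tumour 3 also had the lowest summed adipocyte, fibroblast, endothelial, macrophage and T cell markers of the 6 libraries, at 33.3, 120, 16.1, 207 and 4.22 FPKM. Its luminal sum was 3322 FPKM against 3017 and 2945 in tumours 1 and 2. The part of these cell types in the spread of the ErbB genes was not tested.

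The median luminal marker had a log2 fold change of 1.43, above that of every tested member on the log2(FPKM + 1) scale. That scale understates low genes such as Tgfa, whose log2 fold change was 1.92 with a pseudocount of 0.1. The place of Tgfa below the luminal markers thus depends on the pseudocount. With the mean log2 value of the 8 luminal markers subtracted in each library, the median of all tested genes shifted to -1.51 and 91.9% of them passed as lower and 1.58% as higher. On that scale 6 of the 7 members passed as lower and none as higher by limma (0 at an unadjusted p under 0.05). Erbb2 stood at -0.63 (SE 0.25), Hbegf at -0.68, Erbb3 at -1.05, Btc at -1.10, Egfr at -1.97 and Areg at -3.69. Tgfa stood at -0.16 (SE 0.23, limma adjusted p = 0.511, range 8.84e-04 to 0.511 among alternatives) and did not pass. Since the same amount is subtracted from every gene of a library, the order of the members was the same on both scales. Areg and Egfr lay below the median gene and the other 5 above it.

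**Figure D4:**
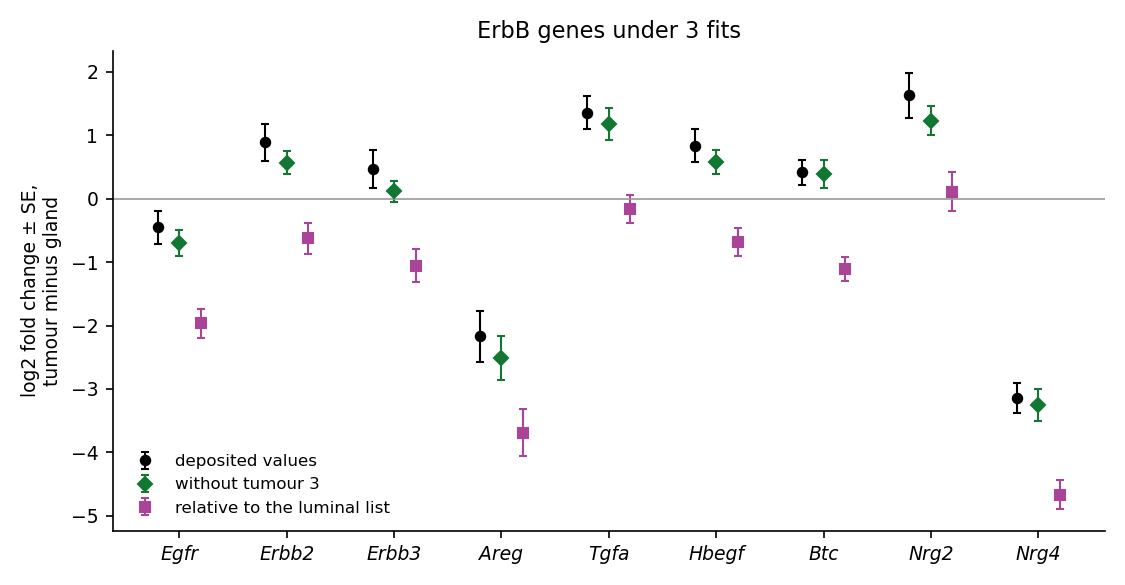
Log2 fold changes of tested ErbB genes, tumour minus gland, with their SE, from the deposited values (circles), without tumour 3 (diamonds) and relative to the mean of 8 luminal markers (squares). Tgfa, Erbb2 and Hbegf lie above 0 in the first 2 fits and below 0 in the third, while Areg and Nrg4 lie far below 0 in all 3.

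Erbb2 lies on chromosome 11 (98412470 to 98437716, mm10, plus strand) in a gene-dense region whose human counterpart is co-amplified with ERBB2 in breast cancer. Of 19 listed genes of this region 15 were tested: 7 rose, 4 fell and 4 did not pass (median log2 fold change 0.23). Over all tested genes 21.9% rose and 23.1% fell. The count of risen genes in the region was 4 without gland 1, without gland 3, with the replicate number as a block or with a common sum per library. Relative to the luminal markers it was 0, where 1.58% of all tested genes passed as higher. The nearest neighbours with a row were Pnmt and Pgap3 on one side and Grb7 and Ikzf3 on the other, and Mien1 overlaps Erbb2, so that reads in the overlap cannot be assigned unless the counting used strand. Pgap3, which remodels lipid anchors, rose from 5.38 ± 0.484 to 9.09 FPKM (0.64, SE 0.20, limma adjusted p = 0.0346), and lost its call without any 1 of the glands (0.0763 to 0.101), without tumour 2 (0.0936) or without tumour 3 (0.0551, range 0.00131 to 0.225 among alternatives). Mien1 rose from 66.7 ± 6.17 to 107.9 FPKM (0.68, limma adjusted p = 0.0041). Grb7, an adaptor that binds Erbb2, rose from 8.53 ± 0.137 to 14.1 FPKM (0.63, limma adjusted p = 0.0299), a call lost without any 1 of the glands (0.0724 to 0.0905, range 6.93e-04 to 0.293 among alternatives). For Pgap3 and Grb7 the low end of the range came from the fit relative to the luminal markers, where they stood at -0.88 and -0.89.

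Within this region, the cholesterol transporter gene Stard3 rose by 0.96 and the phosphatase inhibitor gene Ppp1r1b by 1.80, from 1.31 to 7.09 FPKM. On the other side Ikzf3, a lymphocyte transcription factor, fell from 9.45, 2.39 and 8.77 FPKM to 0.831, 0.892 and 0.218 FPKM, with the 2 high values in the glands that were high in lymph node genes. Without both its log2 fold change of -2.12 was -1.07 (limma adjusted p = 0.112, range 1.9e-04 to 0.112 among alternatives). Thra and the clock gene Nr1d1, at the far end, fell by 1.47 and 1.95. Tcap, a sarcomere gene, stood at 0, 278 and 23.7 FPKM in the glands, where gland 2 had the high muscle genes, and passed as lower only without gland 1 among the single libraries left out (-6.11, limma adjusted p = 0.00505). The 5 tested genes nearest to Erbb2 on both sides apart from Tcap, from Ppp1r1b to Grb7, thus each passed as higher, as Erbb2 did. Across tumours 1 to 3, Stard3, Pgap3 and Grb7 increased in the order of Erbb2, while Ppp1r1b and Mien1 were lowest in tumour 2. Pnmt, in the same stretch, was under the level required and lay lower in the tumours. It had 1.375, 0.90 and 0.694 FPKM in glands 1, 2 and 3 and 0 in every tumour. Relative to the luminal markers Stard3, Pgap3, Mien1 and Grb7 all lay below 0 (-0.56, -0.88, -0.83 and -0.89), while Ppp1r1b stood at 0.28.

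**Figure D5:**
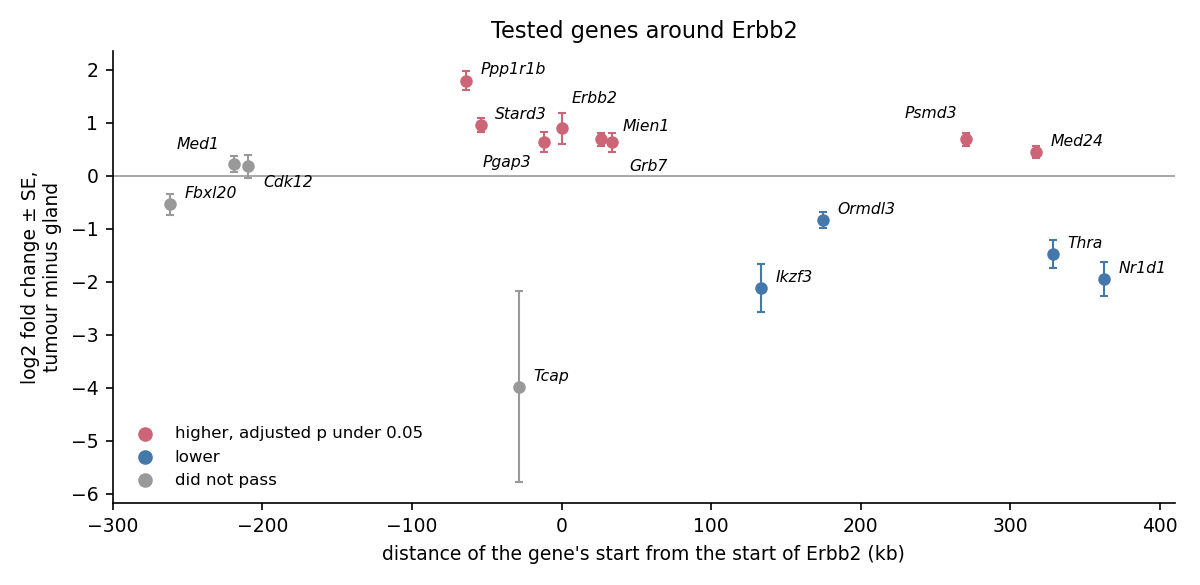
Log2 fold change with SE of tested genes around Erbb2 against the distance of their start from that of Erbb2 (kb, along the chromosome). Red genes passed as higher, blue as lower, grey did not pass. From Ppp1r1b to Grb7 every tested gene but Tcap passed as higher, and farther out both directions occur. Pnmt, in the same stretch, was not tested and is not drawn.

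The other genes of the pathway were taken as lists, described by counts beside the shares of all tested genes given above. Of 27 adaptors and effectors that carry the signal from the receptors, 5 rose, 2 fell and 20 did not pass (median log2 fold change 0.05), and 2 rose when any 1 gland was left out. The count that fell was 1 without any 1 gland, tumour 1 or tumour 2, and 4 without tumour 3. The tyrosine kinase Src rose from 22.2 to 50.3 FPKM (1.14, SE 0.14, limma adjusted p = 7.61e-04) and the ERK kinase Map2k1 from 24.4 to 41.7 FPKM (0.75). Akt2 fell by 0.99, from 71.4 to 35.5 FPKM. Mapk3 and Akt1 had log2 fold changes of 0.25 and 0.26 and did not pass, and that of Mapk3 was 0.15 without tumour 3.

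Of 12 inhibitors and turnover factors of ErbB receptors none rose by limma (1 at an unadjusted p under 0.05), 2 fell and 10 did not pass (median -0.14). Lrig3, of a family of membrane proteins that act on ErbB receptors, fell by 1.06, from 4.29 to 1.56 FPKM, and Lrig2 by 0.55 (0.0284 by limma, lost at 0.0641 to 0.102 without any 1 gland, tumour 1 or tumour 2). The count that fell was 1 without gland 1, gland 3, tumour 1 or tumour 2. Errfi1, a feedback inhibitor of Egfr, stood at 73.5 and 60.8 FPKM and did not pass (limma adjusted p = 0.0764). Of 12 genes of ligand shedding, 4 rose, 3 fell and 5 did not pass (median 0.08). The protease Adam9 rose by 0.92, while Adam12 fell by 1.41, Adam19 by 1.37 and Timp3, an inhibitor of sheddases, from 51.0 to 13.3 FPKM.

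Of 17 genes known as output of the ERK pathway, 16 were tested, of which 8 rose, 3 fell and 5 did not pass (median 0.61). Ier3, an immediate early gene, rose from 9.39 to 95.1 FPKM (3.18), the ephrin receptor Epha2 by 1.84 and Phlda1 by 1.18. Spry1, a feedback inhibitor of receptor tyrosine kinases, fell by 1.11. Ccnd1, the cyclin D1 gene, had a tumour mean of 79.2 FPKM against 54.9 in the glands and did not pass. Its tumour values were 59.8, 57.9 and 119.8 FPKM, and the log2 fold change of 0.44 was 0.10 without tumour 3. Nor did the ERK phosphatase gene Dusp4 pass (35.8 and 26.3 FPKM). With single libraries left out, Dusp4 passed without tumour 3 (-0.67, limma adjusted p = 0.0119). The count that rose was 5 without gland 3 or tumour 2, and the count that fell was 1 without any 1 gland or tumour 2.

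Of 12 partners and carriers of ErbB signalling, 8 rose and none fell by limma (0 at an unadjusted p under 0.05), and in all 12 every tumour lay above every gland (median 0.74). The mucin gene Muc1 rose from 11.2 to 59.0 FPKM (2.30, limma adjusted p = 3.05e-05), and Muc4, whose product binds Erbb2, by 2.18. The chaperone gene Hsp90aa1 rose by 1.26 and Cd44 by 0.86. Hsp90ab1 and Cd9 stood at 0.33 and 0.38 and did not pass. With single libraries left out, Hsp90ab1 passed without tumour 1 (limma adjusted p = 0.028) and Cd9 without tumour 3 (0.0381). With array weights both passed (0.0196 and 0.0376), and Cd9 also with a common sum per library (0.049). Most of these genes are expressed in luminal epithelium, whose markers rose in the same libraries, and their part in these values was not tested. On the scale relative to the luminal markers 2 of the 12 passed as higher and 8 as lower: Muc1 and Muc4 stood at 0.78 and 0.66, Hsp90aa1 and Cd44 at -0.26 and -0.66, and Hsp90ab1 and Cd9 at -1.19 and -1.13.

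Over the 6 libraries, the genes most like Areg in log2(FPKM + 1) were Lamb2, a laminin chain, and Tmem8b (Pearson r = 0.998 and 0.996). Those most like Tgfa were Rab3d, of the secretory pathway, and the phospholipase gene Plcg2 (r = 0.998 for both), and those most like Erbb2 were Cdcp1 and St6galnac6 (r = 0.998 for both). With 6 libraries in 2 groups such values are common: 339, 845 and 525 tested genes had r above 0.95 with Areg, Tgfa and Erbb2.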

How the data were processed

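RNA was measured by Illumina sequencing of flash-frozen tissue from 3 glands and 3 tumours, extracted with Trizol and RNeasy columns per the labels' protocols. The deposited table holds 1 value per gene symbol and library. The authors' values are taken as FPKM from their range, since the header names no unit. HISAT2, StringTie and mm10 are named in the submitters' processing notes, with versions and annotation not given in the sources used here. Of 24421 symbols, 6247 were at 0 in all libraries. Counts were not used here, so depth was estimated from steps between low values.

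Values were tested as log2(FPKM + 1) with limma 3.58.1 (R 4.3.3, mean-variance trend, 2-sided) for genes averaging 1 FPKM or more, with Benjamini-Hochberg adjustment over 13364 genes. The script was tested on simulated data. Alternatives changed the pseudocount, filter, normalization, libraries and array weights, added the replicate number as a block, or centred on luminal markers.

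Named genes were the members, the other ligands, up to 4 passing and 2 non-passing genes of each list, 2 genes most like each of 3 members, and neighbours of Erbb2. Genes with changes under 0.05 were not described, and some named genes are not reported here. Cell type markers covered luminal, hormone-sensing, alveolar, basal, adipocyte, fibroblast, endothelial, macrophage, neutrophil, T cell, B cell, Schwann cell, muscle and skin lists. The members and lists were chosen with earlier results of these data known.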

Additional observations from a re-analysis of the deposited data

How the results depend on the processing

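Over all genes, 2933 passed as higher and 3090 as lower. These counts were 790 and 1262 without glands 1 and 3, and the lower count was 1864 with a mean of at least 5 FPKM. The share of calls that were higher moved from 48.7% to 58.3% under quantile normalization. Of the ErbB members 3 passed as higher, against 1 with a common sum per library or with the replicate block, and 0 relative to the luminal markers. The count was also 1 with a mean of at least 5 FPKM, where Tgfa, Hbegf and Btc were under the level required and not tested. With single libraries left out this count ranged from 1 to 3. The count of lower members was 1, against 0 without glands 1 and 3, 2 with array weights and 6 relative to the luminal markers, and ranged from 1 to 2 with single libraries left out. The replicate block gave 2147 higher and 2581 lower genes. The numbers share only a name: deviations of same-numbered glands and tumours correlated at -0.0541, -0.118 and -0.124.

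Relative to the luminal markers, a scale that shifts the median gene to -1.51, these log2 fold changes turned negative by construction: Erbb2 -0.63, Erbb3 -1.05, Hbegf -0.68, Btc -1.10, Tgfa -0.16, Src -0.38, Map2k1 -0.77, Mapk3 -1.27, Akt1 -1.26, Stub1 -1.37, Adam9 -0.59, Rhbdf1 -1.29, Phlda1 -0.34, Ccnd1 -1.08, Stard3 -0.56, Med1 -1.29, Cyr61 -0.65, Hsp90aa1 -0.26, Cd44 -0.66, Hsp90ab1 -1.19, Cd9 -1.13, Pgap3 -0.88, Mien1 -0.83, Grb7 -0.89 and Ctgf -1.45. Ctgf also stood at -0.036 under quantile normalization, -0.0031 with a common sum, and from -0.081 to 0.33 with single libraries left out (-0.058 without tumour 1). The cause of the other changes was not tested. Low levels limited Erbb4, Ereg and Nrg1, with 0 to 33, 0 to 2 and 5 to 91 estimated fragments per library.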

Other observations

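Among the other cell types, 5 of 7 alveolar luminal markers rose and 5 of 8 basal and myoepithelial markers fell. Of 7 tested hormone-sensing luminal markers 1 rose and 4 fell, and of 5 endothelial markers all fell. Neutrophil markers summed to 24.9 to 45.1 FPKM in the glands and to 3158, 1875 and 269 FPKM in tumours 1 to 3. Most of each sum was S100a8, with 3100.5, 1832.6 and 258.8 FPKM in tumours 1 to 3, and only this 1 of the 4 passed. The others did not move together: S100a9 had a log2 fold change of 1.371, Csf3r of -0.531 and Cxcr2 of -0.502. No B cell or skeletal muscle marker of 5 tested each passed by limma, where 2 and 5 had an unadjusted p under 0.05. Of 2 tested skin markers 1 rose, and of 6 T cell markers 5 fell.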
